A study of Mus musculus with 40 samples.

Results

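The Hox genes were taken as every protein-coding gene whose symbol is Hox, a letter from a to d and a number, which gave 39 of the 45706 genes measured. They encode transcription factors that share a DNA-binding homeodomain and that tell cells where they lie along the body axis. In mammals they stand in 4 clusters, in which genes toward the 3′ end (low paralog numbers) are used toward the head and genes toward the 5′ end (high numbers) toward the tail. Along the gut the high numbers, with Hoxa13 and Hoxd13 at the end of the series, mark the hindgut, and Cdx factors, the TALE cofactors (Meis, Pbx, Pknox) and retinoic acid act with or upstream of them. On the mouse genome mm10, the Hoxa cluster holds 11 genes on chromosome 6, Hoxb 10 on chromosome 11, Hoxc 9 on chromosome 15 and Hoxd 9 on chromosome 2.

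RNA had been sequenced from sorted neutrophils, monocytes, epithelial cells and stromal cells, in 40 libraries that form 10 groups of 4. The tumor groups came from mice of the transgene label Cdx2CreERT2 - Apc fl/fl that had received a single dose of tamoxifen, 25 mg/kg, at 8 to 10 weeks of age. CreERT2 is there driven by the promoter of Cdx2, itself a regulator of posterior identity in the gut epithelium, and removes both copies of the Wnt pathway inhibitor Apc in cells where that promoter is active. Blood neutrophils and monocytes came from the same kind of tumor-bearing mice and from healthy mice, and healthy epithelial and stromal cells from colon of healthy mice with strain label C57Bl6, no transgene and no agent. The strain of the 24 tumor-bearing libraries is written C57Bl6/Sv129 with digits after Sv that go up by 1 per library to 152, so the background of single mice cannot be read from it. Healthy and tumor-bearing mice thus differed in strain, transgene and tamoxifen as well as in tumor, and these cannot be told apart. No age is given for the healthy mice apart from the shared protocol. The titles give the libraries of a group different animal numbers, and some blood libraries pool 2 animals. By titles that name 1 animal, 9 animals gave more than 1 library, 24 libraries in all, so that groups share mice. Tumor stromal replicates 3 and 4 carry the animals of tumor epithelial replicates 1 and 2. Tumor epithelial replicates 3 and 4 carry those of tumor neutrophil and tumor monocyte replicates 3 and 4. Healthy stromal and epithelial replicate 4 are of 1 animal. The pools, left out of that count, share mice as well. In healthy mice, blood monocyte replicates 3 and 4 pool the animals of blood neutrophil replicates 1 to 4. Blood monocyte replicate 2 of healthy mice holds the animal of healthy epithelial replicate 1. In tumor-bearing mice, blood neutrophil replicate 3 holds the animal of blood monocyte replicate 3. Pictures of this model in the study show tumors in cecum and proximal colon, and the stretch of colon the healthy cells came from is not given in the sources used here, so position along the gut and tumor cannot be told apart either.

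Library depth ran from 10716847 to 38002110 counts summed over genes. Epithelial cells were gated as CD45- EpCAM+ and stromal cells as CD45- EpCAM-. Healthy stromal libraries held all 8 fibroblast markers at a summed 497.0 to 2671 RPKM, reads scaled to gene length and library size, against epithelial markers at 2.40 to 23.4. In the libraries labeled tumor stromal cells the summed fibroblast markers stood at 6.93, 26.2, 21.8 and 21.5 RPKM in replicates 1 to 4 and lay under the summed epithelial markers, at 242.2, 138, 51.6 and 29.6 RPKM, in every library. Endothelial markers reached 134 and 146 RPKM in replicates 3 and 4 and 4.65 and 4.26 in replicates 1 and 2. Replicates 3 and 4 also held neutrophil markers, at 1564 and 529 RPKM. The label tumor stromal cells is kept below, but its libraries were poor in fibroblast transcripts and rich in transcripts of other cells, and results that rest on them are also given without replicates 1 and 2. Mitochondrial genes took 55.4%, 62.9%, 27.4% and 24.8% of their counts, against 15.6% to 24.9% in healthy stromal libraries. Healthy epithelial replicate 4 had 83.9% of its counts on mitochondrial genes, against 48.6% to 67.4% in the other 3. In such bulk samples, fewer cells of a type and less RNA per cell cannot be told apart.

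Promoter sequences are shown for the 3 genes that separate the colon groups most clearly in the results below, Hoxa13, Hoxd10 and Hoxd11. Hoxa13 (ENSMUSG00000038203) lies on the minus strand of chromosome 6 from 52257694 to 52260880, at the 5′ end of its cluster. Hoxd11 (ENSMUSG00000042499) and Hoxd10 (ENSMUSG00000050368) lie beside each other on the plus strand of chromosome 2, from 74679557 to 74687016 and from 74691924 to 74695105. The windows run from 250 bases before to 50 after a RefSeq transcript start on GRCm38.p6, the assembly also called mm10, and capitals mark the CG dinucleotides at which DNA can be methylated.
Hoxa13, chr6:52260831-52261130 (minus strand): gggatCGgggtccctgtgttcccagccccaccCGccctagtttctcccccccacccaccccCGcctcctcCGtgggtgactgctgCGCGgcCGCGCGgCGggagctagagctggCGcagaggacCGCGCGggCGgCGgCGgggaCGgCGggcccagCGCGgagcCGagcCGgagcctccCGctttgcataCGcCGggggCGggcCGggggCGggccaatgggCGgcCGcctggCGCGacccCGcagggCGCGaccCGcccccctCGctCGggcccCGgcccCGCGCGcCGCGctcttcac
Hoxd10, chr2:74691641-74691940 (plus strand): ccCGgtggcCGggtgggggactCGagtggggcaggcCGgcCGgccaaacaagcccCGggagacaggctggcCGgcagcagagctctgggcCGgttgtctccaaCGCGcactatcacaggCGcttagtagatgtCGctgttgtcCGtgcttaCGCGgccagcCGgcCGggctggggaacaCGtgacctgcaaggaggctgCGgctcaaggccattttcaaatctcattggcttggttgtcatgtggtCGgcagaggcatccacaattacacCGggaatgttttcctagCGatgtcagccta
Hoxd11, chr2:74679308-74679607 (plus strand): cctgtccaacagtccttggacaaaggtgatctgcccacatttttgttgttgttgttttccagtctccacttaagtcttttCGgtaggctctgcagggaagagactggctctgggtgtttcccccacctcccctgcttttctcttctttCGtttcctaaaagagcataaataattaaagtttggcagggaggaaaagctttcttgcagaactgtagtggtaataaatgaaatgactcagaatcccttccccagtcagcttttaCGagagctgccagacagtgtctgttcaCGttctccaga
Hoxd11, chr2:74682073-74682372 (plus strand): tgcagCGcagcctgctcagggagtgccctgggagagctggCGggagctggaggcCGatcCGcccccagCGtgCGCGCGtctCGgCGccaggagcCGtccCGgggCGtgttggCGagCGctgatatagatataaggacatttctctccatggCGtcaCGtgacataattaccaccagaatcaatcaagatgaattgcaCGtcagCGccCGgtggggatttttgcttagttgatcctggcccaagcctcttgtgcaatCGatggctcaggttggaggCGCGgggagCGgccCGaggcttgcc
The Hoxa13 window held 45 CG dinucleotides in its 300 bases, the Hoxd10 window 22, and the downstream and upstream windows of Hoxd11 25 and 4. Of the 39 genes, 22 had a window in the RefSeq table, in 24 windows with a median of 14.5 CG dinucleotides and 57.7% GC, against medians of 7 and 52.7% over all 32851 windows. The letters TTTATG, a core that Cdx factors bind, stood on either strand in 5 of these 24 windows (20.8%), those of Hoxa7, Hoxb8, Hoxd3, Hoxd4 and the upstream window of Hoxd11, and in 11.9% of all windows. These matches are letters in a window and were not tested as binding sites. No DNA methylation or factor binding was measured in these samples.

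Colon cells expressed many Hox genes, each at a low level, and blood cells hardly any. Summed over the 39 genes, the level was 27.4 to 30.6 RPKM in healthy stromal cells, 14.8 to 27.4 in tumor epithelial cells, and 24.9, 20.7, 18.2 and 11.2 in tumor stromal replicates 1 to 4. Healthy epithelial cells varied most, with 12.9, 32.3, 29.8 and 4.34 RPKM, the last in the library rich in mitochondrial counts. The 16 blood libraries stayed between 0.311 and 2.21 RPKM. A Hox gene with at least 10 counts was found 29 to 34 times among the 39 in a healthy stromal library, 17 to 24 times in a healthy epithelial library and at most 4 times in a blood library. Healthy stromal cells therefore had the widest set. Hoxd8 was the most abundant member there at a mean of 3.74 RPKM, before Hoxc10 and Hoxa5, the latter at 2.18. In healthy epithelial cells Hoxb6 came first at 4.22, before Hoxb9 at 2.89. Hoxb1, Hoxb13, Hoxc11, Hoxc12, Hoxc13 and Hoxd12 stayed under 0.1 RPKM in all 40 libraries, and Hoxd13 reached no more than 0.153. The posterior series thus ended, in these libraries, at Hoxa13 and at paralogs 10 and 11 of the Hoxc and Hoxd clusters.

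**Figure D1:**
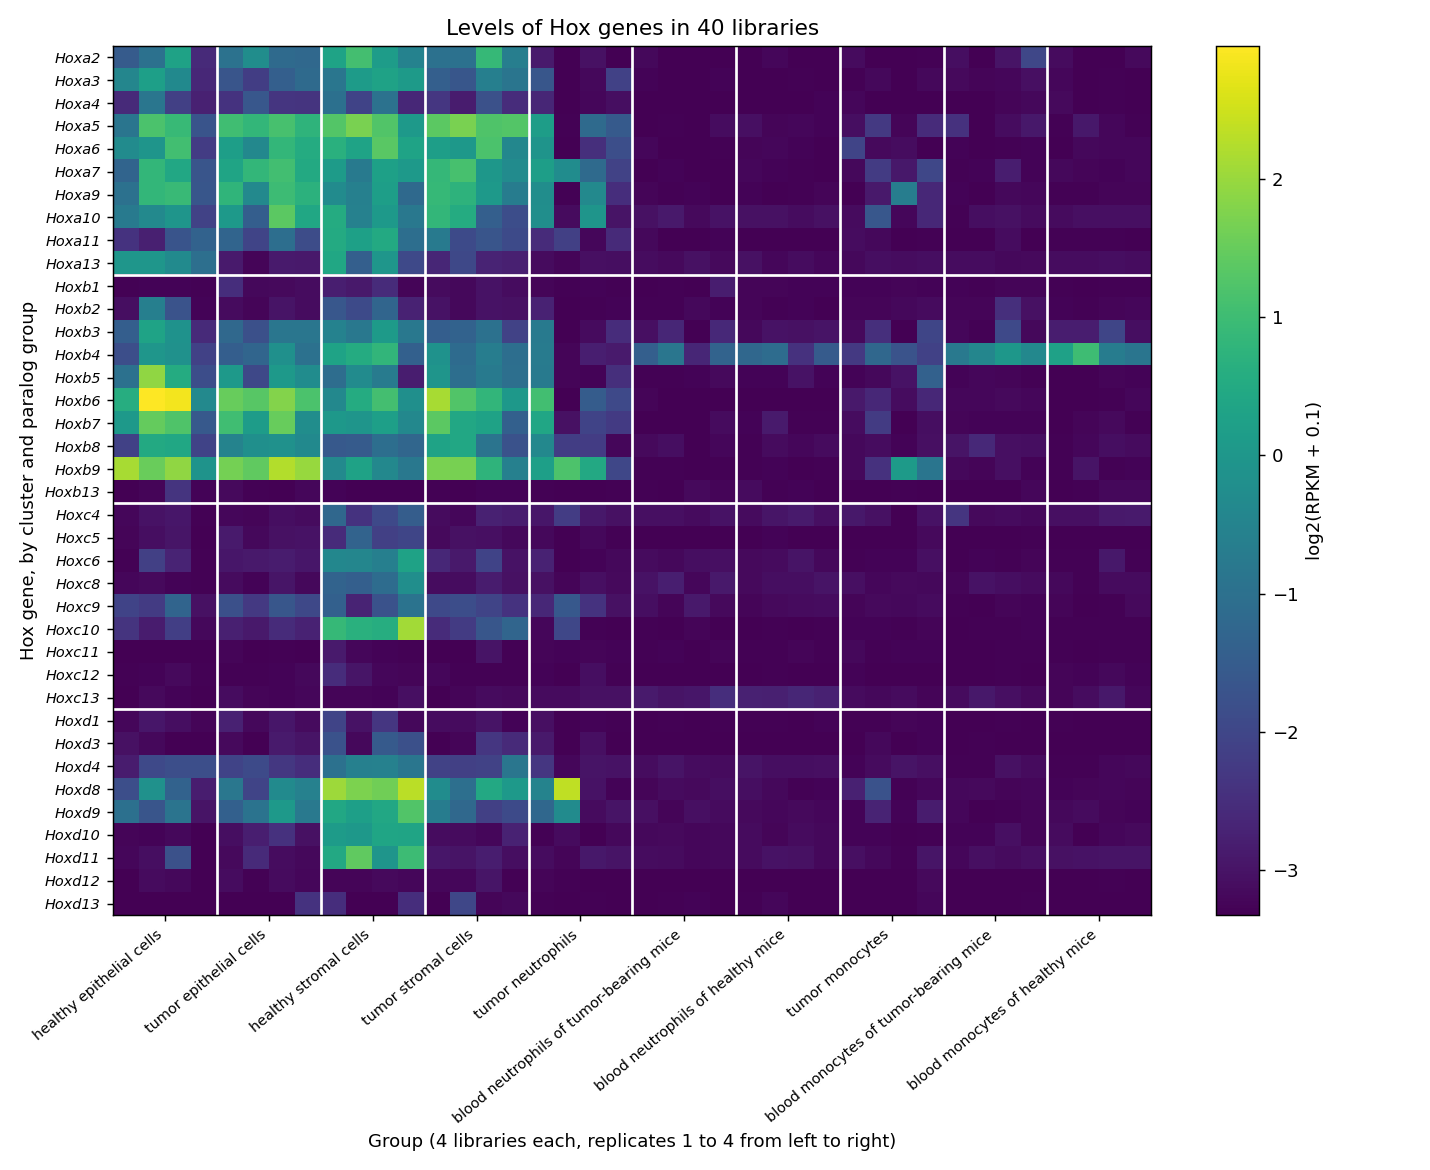
Levels of Hox genes (rows, by cluster and paralog number) in the 40 libraries (columns, 4 per group) as log2 of RPKM plus 0.1, with white lines between clusters and groups. The colon groups are filled in the Hoxa and Hoxb blocks, healthy stromal cells also in the Hoxc and Hoxd blocks, and blood cells show little beside Hoxb4.

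Which clusters supplied the Hox transcripts differed between the sorted colon cells. Hoxa and Hoxb genes together made up nearly all of the epithelial signal, with Hoxb at 52.4% to 64.3% of the summed Hox RPKM in healthy and 48.4% to 51.5% in tumor epithelial cells. The Hoxd cluster gave 3.84% to 5.97% in healthy epithelial cells and 23.5% to 39.9% in healthy stromal cells, and Hoxc gave 0.95% to 2.01% and 9.27% to 25.4%. The ranges of these cell types do not overlap for either cluster. Tumor stromal cells had less Hoxd than any healthy stromal library. Their Hoxd shares were 5.84%, 5.19%, 9.69% and 15.2%, and their Hoxb shares 52.6%, 43.4%, 34.9% and 25.8% in replicates 1 to 4. The Hoxb share was highest in replicate 1, which had the most epithelial markers, and lowest in replicate 4, which had the fewest. Paralogs 9 to 13 together had 32.1% to 43.5% in healthy stromal and 20.2% to 52.9% in healthy epithelial cells, so the posterior share did not separate them. In tumor stromal replicates 1 to 4 it was 31.9%, 34.8%, 20.6% and 19.1%. Replicate 2 was inside the healthy stromal range and the others were below every healthy stromal library.

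**Figure D2:**
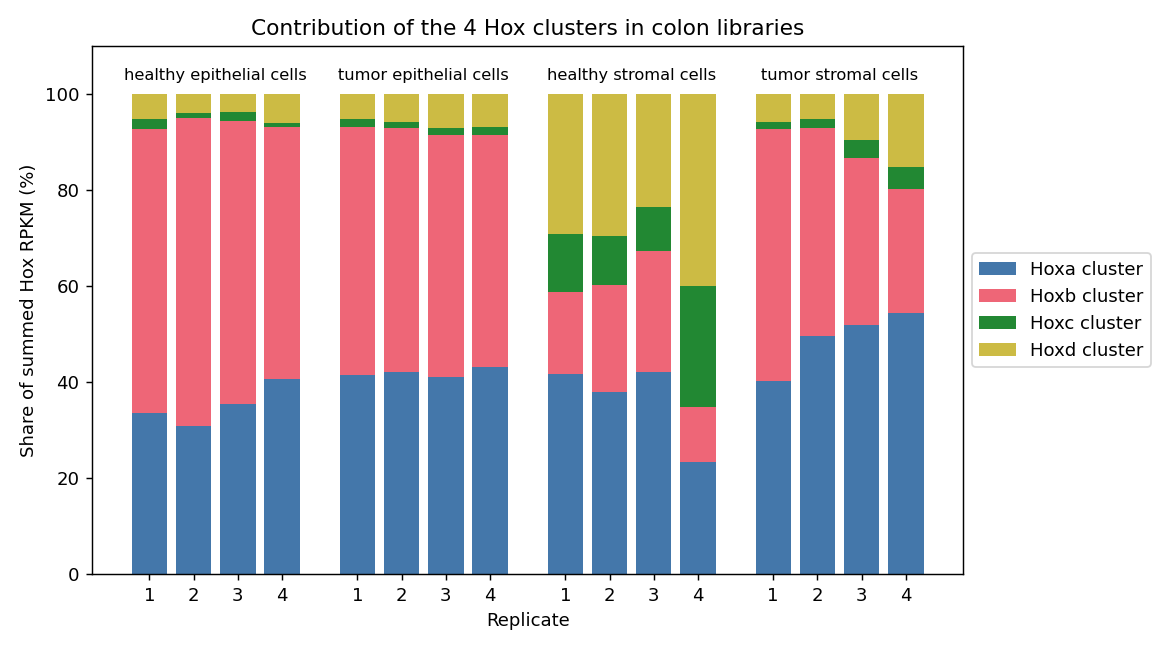
Share of the summed Hox RPKM (percent) that each of the 4 clusters gave in the 16 colon libraries, by replicate. Hoxd fills 23.5% to 39.9% of the healthy stromal bars, 3.84% to 5.97% of the healthy epithelial ones and 5.19% to 15.2% of the tumor stromal ones.

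Healthy stromal and epithelial cells carried different Hox codes, with mostly Hoxc and Hoxd genes higher in stroma and Hoxb6, Hoxb8 and Hoxb9 higher in epithelium. Of 30 Hox genes tested, 10 were higher in stromal cells and 3 lower, against 19.4% and 11.5% of all genes tested. The median log2 fold change of the 30 was 0.19, and that of all genes 0.14. Hoxc4, Hoxc5, Hoxc8 and Hoxd10 passed the filter on low counts through the stromal libraries alone. The number called is therefore no support for a difference of the family. Genes were called where the adjusted p was under 0.05 and the log2 fold change beyond 1.5 in size. Hoxd10, which together with Hoxa10 and Hoxc10 patterns the lumbar region and the hind limb, had 0.984, 0.924, 1.20 and 1.17 RPKM in the stromal libraries and at most 0.00907 in the epithelial ones. With 520 counts in stromal and 2 in epithelial libraries, the ratio was 126 with a counting interval of 34.6 to 1040 (edgeR, log2 fold change 6.73, standard error 0.79, adjusted p = 2.41e-04). Hoxd11, its neighbor, had 1.28, 2.58, 0.877 and 1.89 RPKM in stroma and 0.00798, 0.0171, 0.197 and 0.00160 in epithelium (4.35, standard error 0.92, adjusted p = 0.00467). Every stromal library was thus above every epithelial library for both genes. Hoxc10 followed at 1.73, 1.49, 1.41 and 4.18 RPKM in stroma and 0.00997 to 0.123 in epithelium (4.22, standard error 0.60, adjusted p = 6.70e-04), and Hoxc8, which patterns the thorax, at 0.303, 0.276, 0.364 and 0.767 against at most 0.0119 (4.93, standard error 0.66, adjusted p = 4.80e-04).

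The rest of the stromal set was smaller in size. Hoxc6 rose by 3.40 (standard error 0.87, adjusted p = 0.0122), Hoxc5 by 3.00 (standard error 0.77, adjusted p = 0.0127) and Hoxc4 by 2.88 (standard error 0.61, adjusted p = 0.00492) on the log2 scale in edgeR's test, and Hoxc5 and Hoxc10 share 5.37% and 8.70% of their exonic bases. Hoxd8 was at 2.93 to 4.84 RPKM in stroma and 0.0413 to 0.806 in epithelium (2.86, standard error 0.47, adjusted p = 0.00132), and Hoxd9 was the tenth. The genes lower in stroma were all of the Hoxb cluster. Hoxb9, the most posterior Hoxb gene that was measured above 0.1 RPKM, had 0.475 to 1.13 RPKM in stroma and 4.27, 2.80, 3.67 and 0.831 in epithelium (-2.85, standard error 0.40, adjusted p = 5.95e-04). Hoxb6 had 0.662, 1.36, 2.02 and 0.774 RPKM in stroma and 1.41, 7.68, 7.11 and 0.675 in epithelium (-2.43, standard error 0.53, adjusted p = 0.00571), and Hoxb8 fell too (-1.90, standard error 0.57, adjusted p = 0.0265). In RPKM the groups overlap through epithelial replicate 4 for Hoxb9, and through epithelial replicates 1 and 4 for Hoxb6 and Hoxb8. Hoxb8 lost its call without epithelial replicate 2 or 3 or stromal replicate 1 or 2 (adjusted p = 0.0637 to 0.0740). Hoxa13 was in both cell types, at 1.23, 0.277, 0.892 and 0.163 RPKM in stroma and 0.885, 0.880, 0.702 and 0.390 in epithelium (-1.30, standard error 0.64, adjusted p = 0.139), and Hoxa5 also missed the threshold (0.28, standard error 0.49, adjusted p = 0.694).

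Many Hox genes had counts in healthy colon cells and few or none in healthy blood. The filter on low counts kept 26 genes for stromal and 13 for epithelial cells, most of them only because colon cells had counts, so the number called among them is no support for a difference of the family. Of these, 25 were higher in healthy stromal cells than in healthy blood (all genes, 29.3% higher and 14.7% lower) and 12 in healthy epithelial cells (all genes, 23.7% higher and 22% lower), and 0 were lower by edgeR, limma-voom and DESeq2 or at an unadjusted p under 0.05. Hoxc10 had 1095 counts over the healthy stromal libraries and 0 over the 8 healthy blood libraries, at least 456-fold higher against a floor of 3 counts over the group. Hoxa11, whose exons are overlapped over 35.0% by an antisense gene, had 452 counts against 0, at least 188-fold. In epithelial cells Hoxb6 had 2066 counts against 1 in blood, a ratio of 5351 whose counting interval of 959.4 to 211500 shows how little 1 count fixes it. Hoxa13 was 4.68 higher on the log2 scale in stromal (standard error 0.53, adjusted p = 6.54e-06) and 5.95 higher in epithelial cells (standard error 0.42, adjusted p = 7.60e-08) by edgeR. In stroma Hoxb6 and Hoxa6 had 629 and 380 counts against 1 each, ratios of 786.6 (counting interval 140.7 to 31120) and 475.2 (84.8 to 18820), and Hoxa2 had 493 against 3, a ratio of 205.5 (69.9 to 999.9). The other large log2 fold changes in stroma were those of Hoxd8 (8.39), Hoxa3 (7.95) and Hoxa5 (7.16), with edgeR adjusted p-values from 1.26e-09 to 7.16e-07. In epithelium they were those of Hoxb9 (9.47), Hoxa3 (8.02), Hoxa9 (7.96), Hoxb7 (7.89), Hoxb5 (7.66), Hoxa7 (7.40) and Hoxa5 (6.85), with adjusted p-values from 1.02e-08 to 2.14e-06.

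Of the Hox genes tested against blood, Hoxb4 alone was not called higher in colon cells. This gene, known for its use in expanding blood stem cells, was at 1.10, 1.93, 0.518 and 0.440 RPKM in blood monocytes of healthy mice and 0.486, 0.640, 0.896 and 0.665 in those of tumor-bearing mice. Blood neutrophils had 0.329, 0.364, 0.0879 and 0.248 RPKM in healthy and 0.272, 0.451, 0.0588 and 0.299 in tumor-bearing mice. It alone supplied 52.7% to 87.4% of the summed Hox RPKM in blood monocytes of healthy mice and 19.7% to 51.4% in their neutrophils, against 1.03% to 5.45% in healthy stromal cells. Its level in stromal cells (1.14, 1.35, 1.67 and 0.281 RPKM) overlapped that of blood monocytes. The log2 fold change against blood was 0.54 for stromal (standard error 0.51, edgeR adjusted p = 0.386) and 0.16 for epithelial cells (standard error 0.49, adjusted p = 0.795), and the latter changed sign to -0.04 without healthy epithelial replicate 2. Hoxc13, which the filter removed, ran the other way at a very low level, with 47 counts in healthy blood and 2 in healthy epithelial cells, a ratio of 9.07 with a counting interval of 2.38 to 77.1. It was the 1 gene called lower in epithelium when no filter was used.

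In tumor epithelial cells the gene that fell most was the posterior end of the code, Hoxa13. Of 20 Hox genes tested, 0 were higher and 2 lower in tumor, against 7.52% and 7.88% of all genes tested, with a median log2 fold change of -0.30 beside -0.01 for all genes. No Hox gene tested was higher at an unadjusted p under 0.05, by limma-voom or by DESeq2. The filter on low counts removed the other 19, among them Hoxd10, whose counts are given with the interaction below. Hoxa13, the terminal gene of the Hoxa cluster and needed for the hindgut, had 0.885, 0.880, 0.702 and 0.390 RPKM in healthy and 0.0365, 0.00556, 0.0363 and 0.0342 in tumor epithelial cells. The lowest healthy library was over every tumor library by a wide margin (edgeR, -5.41 on the log2 scale, standard error 0.59, adjusted p = 1.57e-04). The call held in all 8 fits that left out 1 library. Its cluster neighbors, named after their values were seen, were not called. Hoxa10 had a log2 fold change of 0.58, Hoxa9 0.06 and Hoxa11 -0.90, with adjusted p-values of 0.416, 0.939 and 0.555. The other call was Hoxa3, an anterior gene, at 0.642, 1.07, 0.696 and 0.0623 RPKM in healthy and 0.119 to 0.353 in tumor cells (-1.72, standard error 0.45, adjusted p = 0.0186), where the groups overlap through healthy replicate 4. It was lost without tumor epithelial replicate 3 (adjusted p = 0.0539), leaving 1 Hox gene called, or healthy replicate 2 (0.0571), again leaving 1, and 25.4% of its exonic bases are overlapped by other-strand genes. Hoxb9 (-0.32, standard error 0.25, adjusted p = 0.416) and Hoxb6 (-0.98, standard error 0.40, adjusted p = 0.110), the leading epithelial genes, were at 2.60 to 4.63 and 2.17 to 3.35 RPKM in tumor.

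In tumor stromal cells genes of the Hoxc and Hoxd clusters were lower than in healthy stroma. Of 30 Hox genes tested, 0 were called higher and 8 lower in tumor stromal cells, against 3.39% and 5.01% of all genes tested, and the median log2 fold change was -0.84 beside 0.03 for all genes. All 8 belong to the Hoxc and Hoxd clusters. Hoxc4, Hoxc5, Hoxc8 and Hoxd10 passed the filter on low counts through the healthy libraries alone. The number called is therefore no support for a fall of the family. At an unadjusted p under 0.05 there were 5 higher and 12 lower, limma-voom called 0 higher and DESeq2 2, Hoxb8 and Hoxb9. Hoxd11 fell from the levels above to 0.0307, 0.0252, 0.0412 and 0.0172 RPKM (edgeR, log2 fold change -5.49, standard error 0.52, adjusted p = 0.00433). Hoxd10 fell to 0.0149, 0.0128, 0.00823 and 0.0518 RPKM (-5.33, standard error 0.66, adjusted p = 0.00483). Both were, in all 4 tumor libraries, far under the lowest healthy library. Hoxc8 was at 0.0165, 0.0163, 0.0400 and 0.0215 RPKM in tumor (-3.81, standard error 0.60, adjusted p = 0.00803) and Hoxc10 at 0.0705, 0.113, 0.219 and 0.313 (-3.30, standard error 0.60, adjusted p = 0.0135). Hoxc6 was at 0.0230 to 0.140 RPKM against 0.557 to 1.13 in healthy cells (-3.25, standard error 0.63, adjusted p = 0.0158). The groups do not overlap for any of these. Hoxd8, the most abundant stromal member, was at 0.730, 0.392, 1.29 and 0.933 RPKM in tumor (-1.84, standard error 0.35, adjusted p = 0.0157).

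The calls of Hoxc5 and Hoxc4 changed most often when 1 library was left out. Hoxc5 (-2.88, standard error 0.65, adjusted p = 0.0285) lost its call in 6 of the 8 fits without 1 library, those without any tumor stromal replicate or without healthy stromal replicate 2 or 3 (adjusted p = 0.0526 to 0.0798), and Hoxc4 (-2.63, standard error 0.70, adjusted p = 0.0484) in all 8 (0.0650 to 0.125). The count of 8 ranged from 6 to 9 in these fits. Hoxa13 had 0.0599, 0.157, 0.0545 and 0.0457 RPKM in tumor stroma, every value under the lowest healthy one of 0.163, and missed the threshold (edgeR, -2.55, standard error 0.78, adjusted p = 0.0763), which it passed without healthy stromal replicate 4 (0.0465). Middle genes of Hoxa and Hoxb had positive values that were not called. Hoxa5 was at 2.26 to 3.14 RPKM in tumor (0.61, standard error 0.39, adjusted p = 0.376), and Hoxb6 at 4.27, 2.30, 1.66 and 0.912 (1.31, standard error 0.55, adjusted p = 0.182). Hoxb9, named after its values were seen, was at 3.17, 3.10, 1.61 and 0.564 RPKM (1.92, standard error 0.59, adjusted p = 0.0765). For both Hoxb genes replicates 1 and 2 were the highest.

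**Figure D3:**
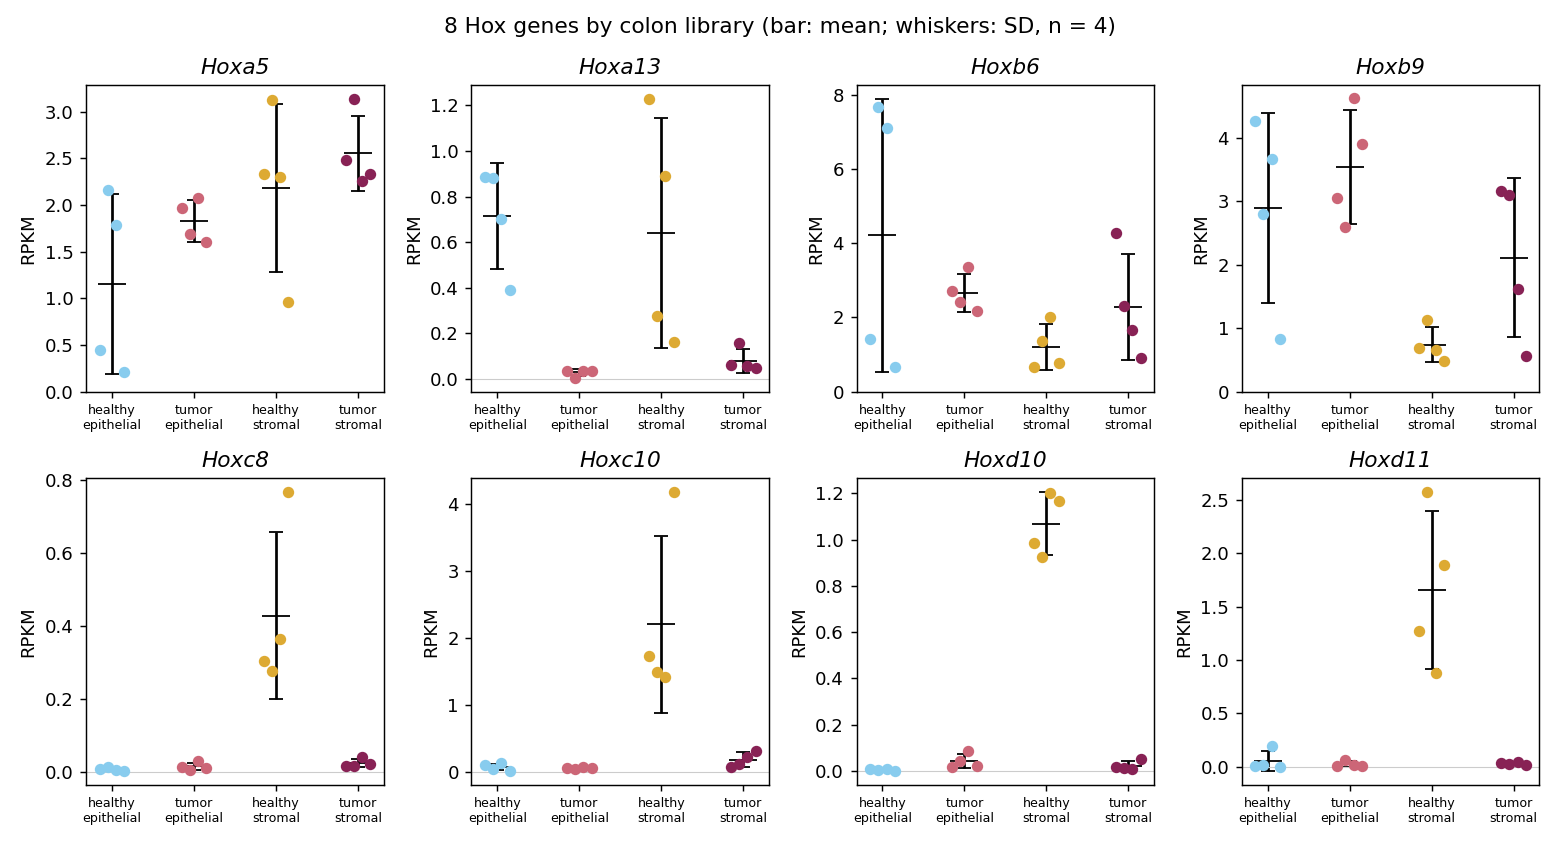
RPKM of 8 Hox genes in the 16 colon libraries (points), with the mean as a bar and the SD as whiskers, n = 4 per group. Hoxc8, Hoxc10, Hoxd10 and Hoxd11 are high in the 4 healthy stromal libraries alone, and Hoxa13 is low in both tumor groups.

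**Figure D4:**
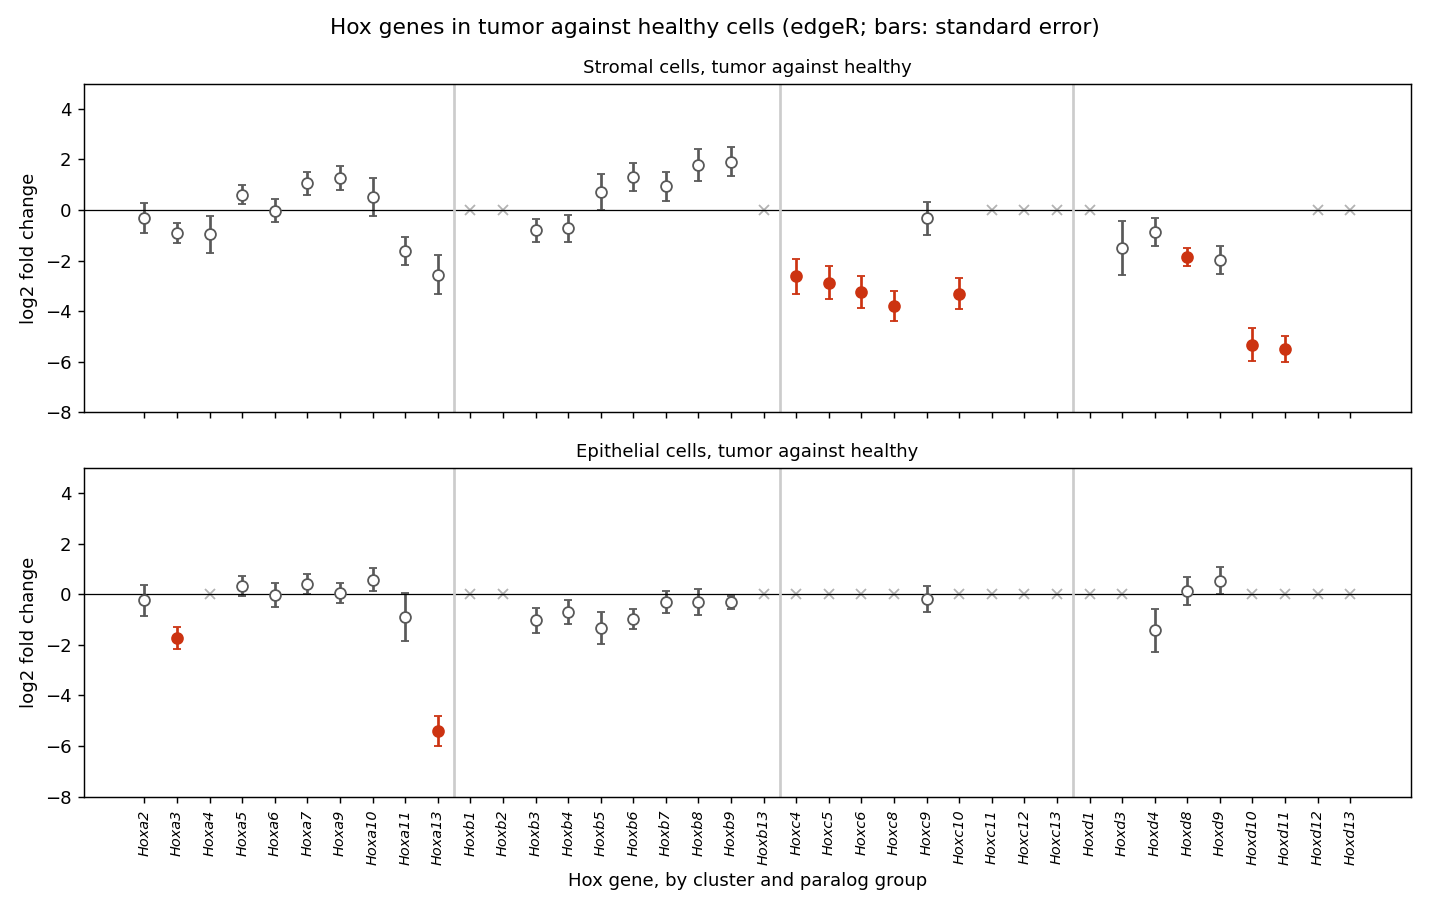
Log2 fold changes of tumor against healthy cells from edgeR with their standard errors, for stromal (top) and epithelial cells (bottom). Filled points were called, open points were tested and not called, and a cross on the zero line marks a gene that was not tested.

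Markers of several cell types also differed between tumor and healthy stromal libraries. The 8 fibroblast markers had a median log2 fold change of -4.87 in the stromal comparison, and 7 of 8 were called lower. Smooth muscle markers were lower in 4 of 6, and epithelial markers higher in 3 of 10 with a median of 3.75. The part of these cells in the Hox result was not tested. Without tumor stromal replicates 1 and 2, the libraries with most epithelial transcripts, 5 Hox genes were called lower, Hoxc8, Hoxc10, Hoxd9, Hoxd10 and Hoxd11, of which 4 were among the 8. Hoxd8 then had a log2 fold change of -1.48 (adjusted p = 0.0459), Hoxc6 -2.94 (0.0776), Hoxc5 -2.94 (0.124) and Hoxc4 -1.96 (0.199). Hoxa13 was at -3.39 (0.0947), Hoxa5 at 0.34 (0.745), Hoxb6 at 0.36 (0.770) and Hoxb9 at 0.81 (0.453). In the same fit 8 of 8 fibroblast markers were lower, and of 10 epithelial markers 0 were called, with a median of 2.76. Without replicates 3 and 4 in their place, 7 were called lower, all but Hoxc5, and 5 higher, Hoxa7, Hoxa9, Hoxb6, Hoxb8 and Hoxb9.

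**Figure D5:**
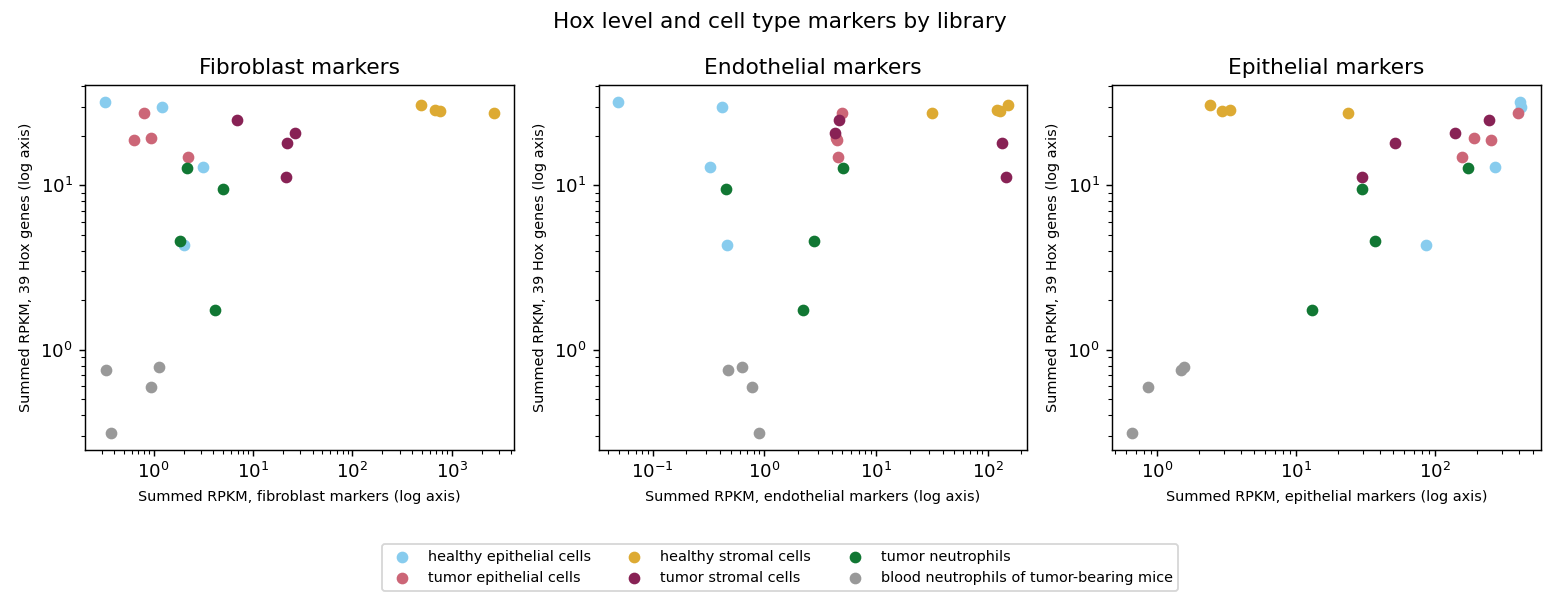
Summed RPKM of the 39 Hox genes (log axis) against summed RPKM of fibroblast, endothelial and epithelial markers (log axes), 1 point per library of 6 groups. Tumor stromal libraries have 6.93 to 26.2 RPKM of fibroblast markers, all under the healthy stromal range. Tumor neutrophil replicates 1 to 4 have 172.4, 29.5, 36.9 and 13.1 RPKM of epithelial markers and 12.7, 9.54, 4.57 and 1.74 of Hox genes.

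Whether stroma and epithelium changed differently was tested as an interaction over the 16 colon libraries. Of 32 Hox genes, 7 were called, 2 with a higher and 5 with a lower change in stroma than in epithelium, against 7.25% and 6.81% of all genes. Hoxc5 and Hoxd10 passed the filter through the healthy stromal libraries alone, so the number called is no support for a difference of the family. Hoxd10 had the largest, with a difference of the log2 fold changes of -7.75 (edgeR, standard error 1.13, adjusted p = 4.38e-04), before Hoxc8 (-4.15, standard error 0.87, adjusted p = 0.00460). These 2 passed in all 16 fits that left out 1 library. The epithelial part of the Hoxd10 value rests on 24 counts in tumor and 2 in healthy cells. That is a ratio of 6.51 with a counting interval of 1.62 to 56.9, and the filter removed Hoxd10 from the epithelial comparison. The size of its difference is therefore uncertain. Hoxd11 (-4.11, adjusted p = 0.0387), Hoxc5 (-3.41, 0.0332) and Hoxd9 (-2.51, 0.0407) on one side and Hoxb6 (2.28, 0.0407) and Hoxb9 (2.23, 0.0291) on the other were each lost in 7 to 11 of the 16. Without tumor stromal replicate 1 the count was 3, and it was also 3 without healthy stromal replicate 4 or tumor epithelial replicate 4. It was 4 without any of tumor stromal replicate 2, tumor epithelial replicates 1 to 3, healthy epithelial replicate 2 and healthy stromal replicates 1 and 2. For Hoxa13 the log2 fold change in stroma lay above that in epithelium by 2.84 (standard error 0.94, adjusted p = 0.0542), which missed the threshold. Hoxd13 could be fitted here alone of the paralog 13 genes besides Hoxa13 (-4.43, standard error 3.43, adjusted p = 0.447). Its sign turned without tumor epithelial replicate 4 (0.65). Hoxa5 was near zero (0.27, standard error 0.56, adjusted p = 0.806). Without tumor stromal replicates 1 and 2 the called genes were 3, Hoxc8, Hoxd9 and Hoxd10.

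Within tumors no Hox gene was called between stromal and epithelial cells, nor with the animal in the titles as a block. Of 20 tested, 0 were called in either direction by edgeR, limma-voom and DESeq2, and 0 had an unadjusted p under 0.05, against 0.0294% of all genes called higher and 0% lower. Their median log2 fold change was -0.06, beside -0.02 for all genes. Hoxb6 had -0.24 (standard error 0.42, adjusted p = 0.814), Hoxa5, in RPKM higher in every stromal than in every epithelial library, 0.48 (standard error 0.27, adjusted p = 0.445), and Hoxb9 -0.70 (standard error 0.47, adjusted p = 0.521). Without stromal replicates 1 and 2, Hoxc10 was called higher in stroma, and Hoxa10, Hoxb9 and Hoxd9 lower, Hoxb9 at a log2 fold change of -1.84 (adjusted p = 0.0116). The absence of calls over all 4 stromal libraries does not show that the cell types were alike.

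Tumor neutrophils held Hox transcripts that blood neutrophils of the same kind of mice nearly lacked. The filter kept 3 Hox genes, of which 2 were called higher in tumor (all genes, 11.9%) and 0 lower (all genes, 4.41%), by edgeR, limma-voom and DESeq2 alike. Both passed the filter through the tumor libraries alone, so their number is no support for a difference of the family. Hoxb9 had 1.06, 2.21, 1.28 and 0.155 RPKM in tumor neutrophils, with 722 counts against 1 in blood, a ratio of 779 with a counting interval of 139.3 to 30800 (edgeR, adjusted p = 0.00151). Hoxa7 had 1.04, 0.734, 0.352 and 0.135 RPKM, with 420 counts against 1, a ratio of 453 with a counting interval of 80.9 to 17930 (adjusted p = 0.00168). Epithelial markers were summed to 172.4, 29.5, 36.9 and 13.1 RPKM in the same libraries and 7 of the 8 markers tested were called higher than in blood. Their part in the Hox levels was not tested. The libraries differed in which Hox genes they held. Hoxb6 stood at 1.98 RPKM in replicate 1 and at 0, 0.254 and 0.163 in the others. Hoxd8 stood at 4.99 in replicate 2 and at 0.599, 0.0242 and 0.00494 in replicates 1, 3 and 4. That value of Hoxd8 is of 1 library, with 824 counts. The highest Hoxd8 level was 0.707 RPKM in tumor epithelial, 1.29 in tumor stromal and 4.84 in healthy stromal libraries. The value of Hoxb4 was -1.08 on the log2 scale (standard error 1.06, adjusted p = 0.522), and without tumor neutrophil replicate 1 it was called lower (-3.10, adjusted p = 0.0486). The count was 5 without tumor neutrophil replicate 2 and 4 without blood replicate 2, 3 or 4, fits in which 6 and 8 Hox genes passed the filter.

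Summed Hox levels of tumor monocyte replicates 1 to 4 were 0.654, 1.62, 1.94 and 1.77 RPKM, inside the range of all blood libraries. Replicate 1 lay under and replicates 2 to 4 above every blood monocyte library of tumor-bearing mice, at 0.915 to 1.55. The tumor monocytes also had a different mix of Hox genes. Their posterior share was 18.4% to 80.9%, against 6.54% to 11.2% in blood monocytes of tumor-bearing mice. The share of Hoxb4 was 7.55% to 20.3%, against 45.7% to 69.9%. Hoxb4, at 0.105, 0.328, 0.203 and 0.133 RPKM, was the only gene the filter kept and lay under every blood monocyte library of tumor-bearing mice, with a log2 fold change of -1.55 that missed the threshold (edgeR, standard error 0.55, adjusted p = 0.0809). The count was 0 by edgeR and limma-voom and 1 by DESeq2, with 1 at an unadjusted p under 0.05, against 7.76% of all genes higher and 3.89% lower. Hoxb9 was at 0.00916, 0.0848, 0.976 and 0.442 RPKM, and the count was 2 without tumor monocyte replicate 1 and 1 without blood monocyte replicate 3. Epithelial markers in these libraries were summed to 1.71, 35.4, 14.7 and 11.1 RPKM, and their part in the Hox levels was not tested.

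Regulators and partners of the Hox genes were measured from lists. Cdx1 and Cdx2, which switch on posterior genes in gut epithelium, fell together with Hoxa13 in tumor epithelial cells. Cdx2 had 2.57, 8.35, 6.17 and 1.19 RPKM in healthy and 0.507, 0.0702, 1.12 and 0.451 in tumor epithelial cells (edgeR, log2 fold change -3.66, standard error 0.57, adjusted p = 0.00118). Cdx1 had 6.07, 7.18, 9.04 and 1.02 against 0.496, 1.09, 1.71 and 0.838 (-2.96, standard error 0.33, adjusted p = 1.74e-04). Both were epithelial genes in healthy colon, with log2 fold changes of -7.70 and -4.93 in stroma against epithelium (adjusted p = 1.09e-04 and 0.0254), the call of Cdx1 being lost without healthy stromal replicate 2 or 3 (up to 0.0561). In tumor stromal cells Cdx2 (3.02, adjusted p = 0.0976) and Cdx1 (0.92, adjusted p = 0.760) were not called, and without healthy stromal replicate 4 both were (0.0308 and 0.0164). Cdx1 had 1.26 RPKM in that library and at most 0.00544 in the other healthy stromal ones.

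The TALE cofactors, homeodomain proteins that bind DNA together with Hox proteins, were higher in healthy stroma. Of 9 tested, 7 were higher in healthy stroma than epithelium and 0 lower (all genes, 19.4% and 11.5%), led by Meis1 (7.37), Meis2 (7.36), Pknox2 (7.17) and Meis3 (2.09). In tumor stroma 3 of 9 were lower (all genes, 5.01%) and 0 higher (3.39%). Meis2 went from 3.64, 4.95, 3.21 and 6.41 RPKM in healthy to 0.340, 0.396, 0.772 and 0.756 in tumor stromal libraries (edgeR, -2.69, standard error 0.37, adjusted p = 0.00574), with Pknox2 (-3.33, adjusted p = 0.00937) and Meis1 (-3.24, adjusted p = 0.0308) beside it. In tumor epithelium the direction was the opposite, with 2 of 8 higher (all genes, 7.52%) and 0 lower (7.88%), Meis2 (4.21, adjusted p = 0.00196) and Meis1 (2.24, adjusted p = 0.0445). The difference between the cell types was called for 6 of 9, all lower in stroma (all genes, 6.81%). Without tumor stromal replicates 1 and 2 the 3 stromal calls remained, Meis2 at -2.31, Meis1 at -2.57 and Pknox2 at -2.66, and the difference was called for 5 of 9. The Meis1 call was lost in 5 of 8 fits without 1 stromal library and in 7 of 8 without 1 epithelial library, at adjusted p-values up to 0.132.

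Genes of retinoic acid synthesis and response followed in part, with 6 of 12 higher and 1 lower in healthy stroma (all genes, 19.4% and 11.5%), among them Cyp26b1 (7.33), which degrades retinoic acid, Crabp2 (5.84), and Aldh1a2 (5.80) and Aldh1a3 (4.96), which make it. In tumor stroma 4 of 13 were lower (all genes, 5.01%), Aldh1a2 (adjusted p = 0.00978), Aldh1a3 (-2.72), Rxrg (-2.40) and Aldh1a1 (-2.24), and 0 higher. All but Aldh1a2 lost the call in 3 to 6 of the 8 fits without 1 library (adjusted p up to 0.0880) and without tumor stromal replicates 1 and 2 (up to 0.129). In tumor epithelium 5 of 10 were higher (all genes, 7.52%), Cyp26a1 most (7.05), and 2 lower (7.88%), Aldh1a1 most (-4.29). Regional transcription factors of the gut moved with cell type. The mesenchymal factors Foxf1 (9.14), Tcf21 (8.62), Foxf2 (8.61) and Hand1 (8.46) led the 7 of 13 that were higher in healthy stroma (all genes, 19.4%). Hand1 fell (-6.96) and the epithelial factors Onecut2 (6.89) and Gata5 (5.73) rose in tumor stroma, where 5 of 16 were higher (all genes, 3.39%) and 3 lower (5.01%). Without tumor stromal replicates 1 and 2, 3 were higher and 3 lower, with Hand1 at -6.04, Onecut2 at 5.02 and Gata5 at 3.62. In tumor epithelium 3 of 8 were higher (all genes, 7.52%) and 2 lower (7.88%). Gata4, which marks the proximal gut and not the colon, rose from at most 0.00718 to 0.279 to 1.24 RPKM (7.69, adjusted p = 4.27e-04), beside Onecut2 (5.46) and Gata5 (4.34).

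Chromatin regulators of the Polycomb and Trithorax groups hold Hox clusters silent or active. Of 19 Polycomb group genes, 0 were called in tumor stroma (all genes, 3.39% higher and 5.01% lower) and 1 in tumor epithelium (7.52% and 7.88%), Cbx6 (3.00, adjusted p = 0.00111), counts near the share of all genes. Against healthy blood 6 of the 19 were higher in stroma and 0 lower (all genes, 29.3% and 14.7%), and 6 were higher and 1 lower in epithelium (23.7% and 22%). Of 18 tested in tumor monocytes 1 was higher (7.76%) and 3 lower (3.89%). Of 9 Trithorax and demethylase genes, 0 were called in either tumor comparison, and genes that flank the clusters gave 0 of 5 in both. Without tumor stromal replicates 1 and 2 these lists again gave 0 in stroma. Among 18 listed noncoding transcripts of the clusters, 4 were tested in stroma with 0 called, and 6 in epithelium with 1 higher (all genes, 7.52%), Halr1 (7.64), and 1 lower (7.88%), Hoxaas3 (-3.29, adjusted p = 3.78e-04). Halr1 went from at most 0.00404 to 0.209 to 0.517 RPKM. Hoxaas3 is among the genes on the other strand of Hoxa3 and overlaps 20.4% of the exonic bases of Hoxa7, and it is not stated whether the counting used strand, so its reads and theirs are uncertain. The same holds for Hoxb3 and Hoxb2 beside Hoxb3os and for Hoxd3 and Hoxd4, which share 62.3% and 52.3% of their exonic bases.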

How the data were processed

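RNA of sorted cells, prepared as total RNA by the study's methods and labeled polyA RNA, had been amplified and sequenced by the authors in 4 libraries per group, mapped with Bowtie 2 to mm10 and counted on HTSstation, and the annotation release and the strand setting are not given in the sources used here. The authors deposited expected counts and RPKM per gene. The expected counts were rounded to whole numbers for the tests, and RPKM is printed for levels. Genes were tested with edgeR 4.0.16 (TMM scaling, low-count filter, robust quasi-likelihood) on the libraries of the groups compared, with p-values adjusted over all genes tested by Benjamini-Hochberg. A gene was called where the adjusted p was under 0.05 and the log2 fold change beyond 1.5 in size. Standard errors are the absolute log2 fold change divided by the square root of F. Titles give the libraries of a group different animals, and the fits treat groups that share animals as independent, except 1 alternative with the animal as a block. Intervals on low counts are at 95% and cover counting error only. The 39 genes and the lists were chosen with earlier results of these data known. Named genes are those called, at most 8 per direction by size, with Hoxa13, Hoxb13, Hoxd13 and the 2 most abundant members of each group where tested, and from the lists at most 4 per comparison with Cdx1 and Cdx2. Other names are said to be chosen after their values were seen. Alternatives were limma-voom (limma 3.58.1), DESeq2 1.42.0, other scalings, filters and sets of libraries. The fits were tested on simulated counts with known changes. A few genes are not reported here by name, though they are counted.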

Additional observations from a re-analysis of the deposited data

Results flagged for a closer look

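In 74 sets of 4 libraries a library far from the others was looked for, and 7 sets were flagged. The sets were the summed Hox level and posterior share of each group, and named Hox genes whose highest library in a group reached 1 RPKM. Chance flags about 1 in 20 sets that are not chosen by level. That rate does not carry over to the genes, which were kept by their highest library. In tumor neutrophils Hoxb6 (1.98 RPKM) and Hoxb7 (1.21) stood apart in replicate 1 and Hoxd8 (4.99) in replicate 2. In healthy stromal cells replicate 4 stood apart for Hoxc10 (4.18 RPKM), Hoxc6 (1.13) and Hoxd9 (2.29), and in tumor stromal cells replicate 3 for Hoxa2 (1.75).

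The difference between tumor and healthy cells was itself different in stroma and epithelium for 7 genes by edgeR's interaction test. The difference of the log2 fold changes, stroma minus epithelium, was -7.75 for Hoxd10, -4.15 for Hoxc8, -4.11 for Hoxd11, -3.41 for Hoxc5, -2.51 for Hoxd9, 2.28 for Hoxb6 and 2.23 for Hoxb9. The size for Hoxd10 rests in part on 24 and 2 counts in tumor and healthy epithelium. The tumor stromal libraries enter all 7 differences, and the part of their epithelial and low fibroblast transcripts was not tested.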

How the results depend on the processing

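Counts of called Hox genes depended on the fit in most comparisons. In tumor against healthy stroma the count of 8 became 13 with DESeq2 and 5 without tumor stromal libraries 1 and 2, and 6 to 9 when 1 library was left out. In tumor against healthy epithelium it was 1 to 2 with 1 library left out, and in healthy stroma against epithelium 11 to 17. In tumor stroma against epithelium it was 4 without stromal libraries 1 and 2. For healthy epithelium against blood, 26 were called without the filter (25 higher, 1 lower), 24 in a fit of all 40 libraries and 12 to 18 with 1 library left out, and for healthy stroma against blood 25 to 30. For tumor neutrophils the counts were 9, 18 and 2 to 5 under the same changes. For tumor monocytes they were 1, 6 and 0 to 2, and 1 with DESeq2. The interaction gave 4 with limma-voom, without the filter and in a fit of all 40 libraries, 3 without tumor stromal libraries 1 and 2, and 3 to 7 with 1 library left out. The causes were not tested.

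Replicate numbers were given in accession order. Same-numbered libraries carry the same animal in some cases, such as healthy stromal and epithelial replicate 4, and different animals in others. The numbers thus pair no whole groups (correlations of same-numbered libraries from -0.256 to 0.253 over 72 pairs), and a block on them is arbitrary. With it, 3 Hox genes were called in tumor against healthy stroma, 1 in epithelium and 3 in the interaction. With the animal in the titles as a block, tumor stroma against epithelium again gave 0.

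Signs turned for 5 values, given here with their lowest and highest when 1 library was left out. Cdx1 in tumor stroma ran from -0.10 to 6.14 and was -0.49 without tumor stromal libraries 1 and 2. Hoxb6 in tumor stroma against epithelium ran from -0.68 to 0.019 and was 0.28 without libraries 3 and 4, a set chosen after seeing the data. Hoxb4 in healthy epithelium against blood ran from -0.041 to 0.49 and was -0.00089 without the filter. In the interaction Hoxd13 ran from -7.67 to 0.65, and Hoxa5 from -0.0091 to 0.53 with -0.00085 without tumor stromal libraries 1 and 2. Of these, only Cdx1 was called in any of the fits that left out 1 library, without healthy stromal replicate 4.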
